A study of Mus musculus with 6 samples.

Results

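Transcripts of 7 tetraspanin genes, Cd9, Cd81, Cd82, Cd151, Cd63, Cd37 and Cd53, were followed through the immune cells of mouse brains that carried a human glioma graft. The genes were taken by symbol from the 31053 genes of the count matrix, and all 7 had counts. The cells were sorted for the leukocyte protein CD45 from the tumor-bearing right hemisphere of female SCID mice, which lack T and B lymphocytes, so that innate cells remained. U87, an established human glioma line, had been implanted into 3 mice with an IL-33 vector (IL33, taken 3 weeks later) and into 3 mice with the empty vector (pcDNA, taken 6 weeks later). One label gives the mice as 6 to 8 weeks old and another as 8 weeks old at implantation. The 6 libraries were deposited as 1 matrix in which a suffix from 1 to 6 on each cell barcode marks the library. Groups were taken from the GEO labels alone, which tie no suffix to a mouse, and the study's sequencing metrics were not used to assign suffixes. The matrix was therefore treated as 1 pooled sample of both kinds of graft, IL33 was not compared with pcDNA here, and no difference was tested. A spread between suffixes can hold differences between grafts and times as well as between mice.

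Tetraspanins are small proteins that cross the membrane several times and gather integrins, immunoglobulin-like partners and proteases into shared membrane domains. Cd9 and Cd81 are close relatives that act at the cell surface in adhesion and cell fusion and bind the partner protein Igsf8. Cd82 restrains adhesion and migration in many cells, and Cd151 holds laminin-binding integrins. Cd63 cycles between the surface and late endosomes and lysosomes. Cd37 and Cd53 are known as leukocyte tetraspanins. Cd9, Cd63 and Cd81 are also used as markers of extracellular vesicles, and Cd9 and Cd63 are known among the genes of microglia that respond to disease.

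Levels are summed UMIs (transcript molecules counted once each) of a gene per 1000000 UMIs of a group of cells (CPM), with exact Poisson 95% intervals. All intervals reflect counting error alone and say nothing of how mice differ. Of 40411 barcodes, 38751 passed the limits of the study (over 200 and at most 2500 genes, under 5% mitochondrial counts), and suffixes held 2879 to 10217 barcodes at a median of 1536 to 3503 UMIs. Cells were gated on marker lists that hold none of the tetraspanins, which gave 32583 microglia-like, 156 classical monocyte-like, 133 NK cell-like, 58 dendritic cell-like, 47 recruited macrophage-like, 46 granulocyte-like and 166 choroid plexus epithelium-like cells. No cell met the gate for border-associated macrophages. Of the NK, monocyte, dendritic and recruited macrophage groups, 72.3% to 82.8% of cells came from suffixes 4 and 6, against 29.0% of microglia-like cells. Ratios of a group to microglia are pooled over suffixes unless the same suffix is named. T cell markers stood at 0.66 CPM in microglia-like cells but at 124 CPM in NK cell-like and 180 CPM in granulocyte-like cells (34 and 10 UMIs), B cell markers at 18.3 CPM in microglia-like cells, and in no group was a gene of its own marker list at 0. Another 5220 cells, with a median of 908 UMIs, met no gate.

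Libraries shared cell barcodes: 14722 of the 40411 barcodes had a sequence that also occurred under another suffix, and 13400 of them occurred under 3 or more. Shared barcodes were shallow, with a median of 929 UMIs against 3137 for the others, and the UMI totals of the same sequence under 2 suffixes went together (Pearson r of log totals 0.22 to 0.91 over the 15 pairs of suffixes). They made up 32.2% of microglia-like cells, 4.49% of classical monocyte-like, 4.51% of NK cell-like and 74.4% of ungated cells. Levels without them are given beside the values they moved most. Their part in the levels was not tested beyond that. Of the barcodes of suffix 5, 49.6% also occurred under suffix 2, with an r of 0.90. Suffixes can therefore not be taken as independent libraries, and counts of suffixes that agree are a description only.

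In microglia-like cells all 7 tetraspanins were measured at narrow counting intervals, and the largest difference between suffixes was in Cd63. Cd81 (ENSMUSG00000037706, chr7:143052739-143067934, GRCm38, plus strand) stood at 3876 CPM (95% interval 3863 to 3890). Over the 6 suffixes it ran from 3302 through a median of 3844 to 4131 CPM. Cd9 (ENSMUSG00000030342, chr6:125460266-125494791, minus strand) stood at 1294 CPM (1287 to 1302), from 1091 through 1268 to 1441 over suffixes. With all barcodes the highest suffix was within 1.5 times the lowest for both genes. Without shared barcodes Cd9 spread wider than that, from 878 CPM in suffix 5 to 1382 CPM in suffix 2. Cd53 (ENSMUSG00000040747, chr3:106759921-106790149, minus strand) stood at 1178 CPM (1171 to 1185), from 1066 to 1256. Cd37 (ENSMUSG00000030798, chr7:45233632-45239115, minus strand) stood at 478 CPM (474 to 483), from 452 to 531. Both leukocyte tetraspanins thus varied little between libraries. Cd82 (ENSMUSG00000027215, chr2:93419111-93463140, minus strand) stood at 291 CPM (288 to 295), from 266 to 318. Cd151 (ENSMUSG00000025510, chr7:141467392-141471473, plus strand) stood at 55.4 CPM (53.8 to 57.0), from 51.5 to 58.6. Cd63 (ENSMUSG00000025351, chr10:128900989-128912822, plus strand) stood at 716 CPM (710 to 722) but ran from 427 in suffix 3 through a median of 716 to 897 in suffix 4.

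**Figure D1:**
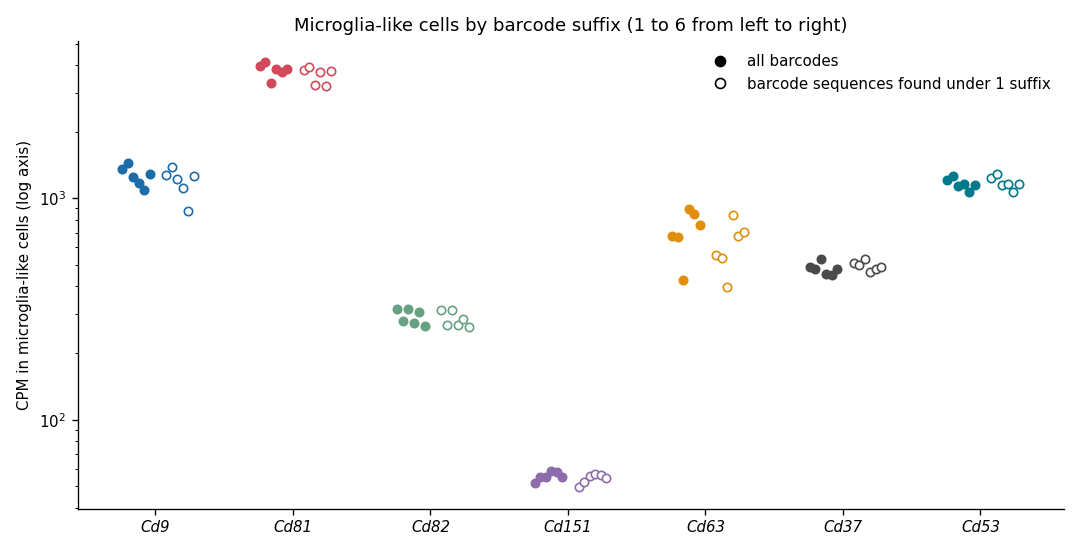
CPM of the 7 tetraspanins in microglia-like cells (log axis), 1 point for each barcode suffix from 1 to 6, for all barcodes (filled) and for barcode sequences found under 1 suffix (open). Cd63 spreads from 427 to 897 CPM with all barcodes and from 397 to 840 CPM with unshared ones, while Cd151 stays between 49.5 and 58.6 CPM in both.

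Without shared barcodes the 22085 remaining microglia-like cells gave 617 CPM of Cd63, 1225 of Cd9, 3681 of Cd81 and 496 of Cd37. The suffix order of Cd63 stayed wide, from 397 CPM in suffix 3 to 840 CPM in suffix 4. Cells with 500 to 1000 UMIs had 1043 CPM of Cd63, those with 2000 to 3000 UMIs 504 CPM, and those with 4000 or more 879 CPM, so the level did not follow depth in 1 direction. When every microglia-like cell was thinned to 500 UMIs, Cd81 was found in 85.0% of cells (exact binomial interval 84.6% to 85.4%), Cd9 in 46.1%, Cd53 in 44.2% and Cd63 in 27.9%. With all UMIs these shares were 99.2%, 85.3%, 85.9% and 62.0%. For scale, choroid plexus epithelium-like cells, which should lack Cd53, had it in 2.41% of thinned cells and 7.83% at full depth, at a median of 1096 UMIs per cell against 2616 in microglia-like cells. The median thinned microglia-like cell held transcripts of 2 of the 7 genes, and 2.61% held none.

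The first question was how the tetraspanins of the recruited blood cells differ from those of microglia. Classical monocyte-like and dendritic cell-like cells had the least of them: 6 of the 7 genes were at least 2-fold below microglia in each, and Cd53 was level with microglia in both. NK cell-like and granulocyte-like cells had more, with Cd37 and Cd53 within 2-fold of microglia in both, Cd82 in the former and Cd9 and Cd63 in the latter. Free RNA in droplets can add microglial transcripts to other cells. The summed level of the microglial complement genes C1qa, C1qb and C1qc in a group relative to microglia (the C1q ratio) is therefore given beside these values. It was 0.118 in NK cell-like, 0.157 in granulocyte-like, 0.025 in classical monocyte-like and 0.013 in dendritic cell-like cells. The C1q UMIs were not spread evenly over cells. Cells with 0.2% or more of their UMIs on these genes held 88.2% of them in NK cell-like and 94.0% in granulocyte-like cells. The source of these transcripts was not tested.

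Monocytes are short-lived blood cells that can become macrophages in tissue. In classical monocyte-like cells Cd81 stood at 71.5 CPM (52.9 to 94.5), 54.2-fold below microglia (41.0 to 73.3). The 2 suffixes with at least 20 such cells gave 41.8 and 98.2 CPM. Both are far below the lowest microglial suffix. The C1q ratio alone would give 98.6 CPM, and in the 149 cells with under 0.2% of UMIs on the C1q genes Cd81 stood at 49.2 CPM against 43.8 CPM given by their own C1q ratio, so a level above background was not detectable. Cd9 stood at 51.1 CPM (35.6 to 71.0), 25.3-fold below, with 29.3 and 28.1 CPM in the 2 suffixes, and was 39.2-fold below without suffix 1, which held 3 of the cells. The C1q ratio would give 32.9 CPM of Cd9, which is above both suffix values. In the 149 cells with few C1q transcripts Cd9 stood at 47.6 CPM against 14.6 CPM given by their own C1q ratio. Cd63 stood at 43.8 CPM (29.5 to 62.5), 16.4-fold below, with 50.2 and 49.1 CPM. The 2 suffixes lay close together for both genes and did not reach the microglial range. Cd82 was 7.99-fold below at 36.5 CPM, Cd151 6.33-fold below on 6 UMIs (11.1-fold without suffix 6), and Cd37 4.75-fold below at 101 CPM. Cd53 stood at 1237 CPM (1155 to 1324), 1.05 times microglia with an interval of 0.98 to 1.12, and was found in 38.5% of thinned cells against 44.2% of microglia. Of 3465 genes at 50 CPM or more in either group, 20% were at least 2-fold lower and 27.5% higher in classical monocyte-like cells, against 6 and 0 of the 7 members, and the median log2 ratio was -2.998 over the members and 0.29 over all genes tested. All 7 members reached 50 CPM in microglia, whereas the background also holds genes that reached it only in the other group. Such genes could not be called lower. The background is thus not matched to the members, and the 6 of 7 cannot be read as an excess over it. The same limit applies to the shares given for the other groups below.

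Dendritic cells take up antigen and present it on MHC class II. Beside 4524 CPM of its own marker list, this group held 2727 CPM of the classical monocyte list, which stood at 8200 CPM in classical monocyte-like cells. It also held 1939 CPM of the recruited macrophage list, so it was not cleanly apart from monocyte-like cells. Dendritic cell-like cells had 64.9 CPM of Cd81 (39.6 to 100.2), 59.8-fold below microglia (38.7 to 97.8), next to 50.7 CPM expected from the C1q ratio. Cd63 stood at 19.5 CPM on 6 UMIs, 36.8-fold below (16.9 to 100.3). Cd9 stood at 172 CPM (129 to 225), 7.53-fold below microglia, and its 2 suffixes gave 96.2 and 257 CPM, so that it was 12.4-fold below without suffix 6. The level of Cd9 was above that of classical monocyte-like cells in both suffixes. Cd151, with 2 UMIs, had a ratio of 0.12 to microglia (counting interval 0.01 to 0.42), 0.20 without suffix 4 and 0 UMIs without suffix 6. Cd37 was 5.46-fold below at 87.6 CPM, and Cd82 was 4.49-fold below at 64.9 CPM, with 48.1 and 95.4 CPM in the suffixes and 7.29-fold below without suffix 6. Cd53 stood at 1206 CPM (1087 to 1336), 1.02 times microglia (0.92 to 1.13). Among 3546 genes, 21.5% were lower and 30.1% higher in dendritic cell-like cells, against 6 and 0 of 7 members, and median log2 ratios were -2.91 for the members and 0.37 for all genes tested.

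NK cells are the cytotoxic lymphocytes left in SCID mice. Cd82 was the member in which they exceeded microglia: 431 CPM (357 to 516) against 291 CPM, a ratio of 1.48 (1.22 to 1.77) that did not reach 2-fold. The 2 suffixes gave 645 and 367 CPM, both above the highest microglial suffix. Against microglia-like cells of the same suffix the ratio was 2.37 in suffix 4, past 2-fold, and 1.38 in suffix 6. Without suffix 4 the pooled ratio was 1.17. Cd53 stood at 687 CPM (592 to 792) and Cd37 at 358 CPM (291 to 436), within 2-fold of microglia. Cd9 stood at 449 CPM (373 to 536), 2.88-fold below, with 582 and 399 CPM in the suffixes. Cd81, at 351 CPM, was 11.1-fold below microglia (9.05 to 13.6), under the 457 CPM that the C1q ratio would give, with 127 CPM in suffix 4 and 530 CPM in suffix 6. Cd63, at 205 CPM, was 3.50-fold below, with 50.6 and 334 CPM. Both genes thus rested on suffix 6, without which Cd81 was 31.3-fold and Cd63 17.2-fold below microglia. Cd151 was found with 1 UMI, which came from suffix 4, a ratio of 0.07 (0.002 to 0.37; 0.15 without suffix 6). Of 3805 genes, 20.9% were at least 2-fold lower and 30.6% higher in NK cell-like cells, against 4 and 0 of the 7 members, and median log2 ratios were -1.53 for the members and 0.46 for all genes tested.

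A few NK cell-like cells carried most of the C1q transcripts of that group, and Cd81 and Cd63 were lower without them. An alternative added once the data had been seen left out cells with 0.2% or more of their UMIs on the C1q genes. It kept 120 of 133 NK cell-like cells, which took away 88.2% of their C1q UMIs. Cd81 was lowered to 57.3 CPM (30.5 to 98.0) and Cd63 to 22.0 CPM (7.15 to 51.4) on 5 UMIs. The C1q ratio of these cells would give 64.8 and 12.0 CPM, so a level above background was not detectable for either gene. Cd82 then stood at 441 CPM, Cd9 at 401, Cd37 at 383 and Cd53 at 687 CPM, close to the values of all 133 cells.

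Granulocytes are white blood cells that include the neutrophils. Granulocyte-like cells were few and shallow (46 cells, median 852 UMIs), and no suffix held 20 of them. Cd9 stood at 1152 CPM (887 to 1471), 0.89 times microglia (0.69 to 1.14), which sets them apart from monocyte-like and dendritic cell-like cells. Cd37 stood at 522 CPM (349 to 749) and Cd53 at 792 CPM (575 to 1063). Genes of the marker lists and Ttr, a choroid plexus gene, took 22.3% of the UMIs of this group against 1.12% in microglia. With totals that leave them out, Cd9 was 1.13, Cd37 1.39, Cd53 0.86 and Cd82 0.47 times microglia. Cd82 was 2.70-fold below microglia on 6 UMIs, and Cd81 was 10.3-fold below at 378 CPM, under the 610 CPM that the C1q ratio would give. Without shared barcodes, which were 19.6% of these cells, Cd81 stood at 138 CPM on 6 UMIs, 26.7-fold below. In the 35 cells with few C1q transcripts Cd81 had 0 UMIs, with an exact Poisson interval up to 94.4 CPM. A floor of 3 UMIs over these cells, 76.8 CPM, would be 50.5-fold below microglia, and the interval allows a smaller difference than that. Cd63 stood at 504 CPM (335 to 728) in all cells and at 230 CPM (105 to 437) in those 35, which is 3.11-fold below microglia. Cd151 had 0 UMIs, a floor of 54.0 CPM that is close to the 55.4 CPM of microglia, so a difference was not detectable at this depth. Among 3600 genes, 36% were lower and 26.3% higher in granulocyte-like cells, against 3 and 0 of the 7 members with Cd151 counted, so the share of members was near that of all genes.

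**Figure D2:**
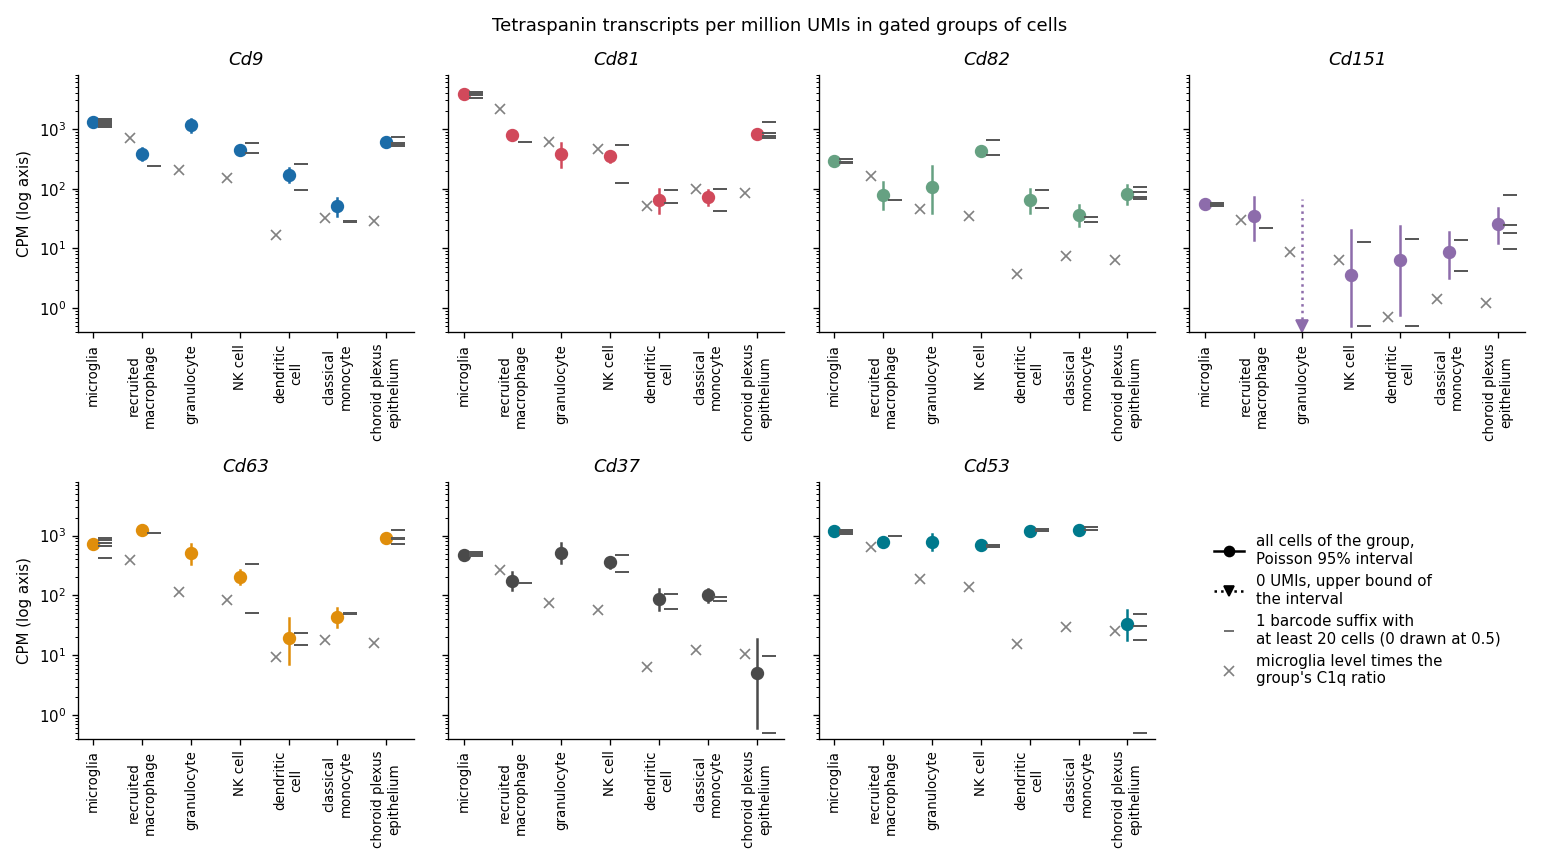
CPM (log axis) of the 7 tetraspanins in 7 gated groups: circles give all cells of a group with the exact Poisson 95% interval, short bars the suffixes with at least 20 cells, crosses the microglial level times the group's C1q ratio, and the triangle a count of 0 (zeros are drawn at the foot of the axis). Cd53 stays between 687 and 1237 CPM in all leukocyte groups, whereas Cd81 stands at 3876 CPM in microglia and 64.9 CPM in dendritic cell-like cells, next to its cross. In recruited macrophage-like cells Cd53, at 782 CPM, lies near its cross at 645 CPM.

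Recruited macrophage-like cells carried Ms4a7, Clec12a, Fn1 and similar genes of blood-derived macrophages with under 0.2% of UMIs on microglial genes, and their C1q ratio was 0.548. Cd63 stood at 1251 CPM (1101 to 1415), 1.75 times microglia (1.54 to 1.98). In suffix 6, which was the one suffix with 20 cells, it stood at 1118 CPM, 1.48 times microglia of that suffix. The pooled ratio depended on the gate. It was 0.99 with at least 4 marker genes required. With at least 0.8% on the microglia list required of microglia-like cells it was 2.45. Macrophages can make C1q themselves, so the C1q ratio is no clean measure of free RNA here. Cd81 was 4.89-fold below microglia at 792 CPM (674 to 925), above the 71.5 CPM of classical monocyte-like cells but under the 2124 CPM that the C1q ratio would give. Cd9 was 3.42-fold below at 379 CPM and Cd82 3.66-fold below at 79.7 CPM, which are also under their C1q values of 709 and 160 CPM. Cd37 was 2.74-fold below at 174 CPM, under its C1q value of 262 CPM, so for these 4 genes expression in these cells and free RNA cannot be told apart. Cd53 stood at 782 CPM (665 to 915), 1.51-fold below, not far above its C1q value of 645 CPM. With the C1q share subtracted its ratio to microglia was 0.12. Cd151, on 7 UMIs, was at 34.9 CPM (14.02 to 71.9), an interval that includes the microglial level. Among 3258 genes, 15.8% were lower and 20.1% higher, against 4 and 0 of the 7 members, with median log2 ratios of -1.46 and 0.10.

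The choroid plexus makes cerebrospinal fluid, and its epithelium is no leukocyte, so that these 166 cells entered in spite of the CD45 sort. Both leukocyte tetraspanins were nearly missing there. Cd37 was found with 2 UMIs, a ratio of 0.01 to microglia (0.001 to 0.04), which was 0.02 without suffix 1 and 0.0057 without suffix 3, and Cd53 stood at 33.3 CPM (17.7 to 57.0), 35.4-fold below microglia and next to the 25.9 CPM given by the C1q ratio of 0.022. Cd63 stood at 917 CPM (825 to 1018), 1.28 times microglia, with 718 to 1257 CPM over 4 suffixes. Against microglia of the same suffix its ratio ran from 0.95 to 1.49. Cd81 was 4.74-fold, Cd82 3.55-fold, Cd9 2.17-fold and Cd151 2.16-fold below microglia. Among 3452 genes, 43.7% were lower and 27% higher, against 6 and 0 of the 7 members, with median log2 ratios of -1.83 and -0.33. Marker genes and Ttr, a transport protein of the choroid plexus, took 40.2% of the UMIs of this group against 1.12% in microglia. With totals that leave out those markers and Ttr, which was also added later, Cd63 was 2.12 times microglia and Cd9 0.76 times, so that Cd63 passed 2-fold and Cd9 and Cd151 no longer did.

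The order of the groups therefore differed from gene to gene. For Cd81 microglia stood first, with Poisson intervals and suffix ranges apart from the choroid plexus epithelium-like cells next in order. For Cd9 microglia and granulocyte-like cells stood first with overlapping intervals. For Cd82 NK cell-like cells stood first and microglia next, with intervals and suffix ranges apart. The NK range holds only 2 suffixes, and the pooled ratio fell to 1.17 without suffix 4. For Cd63 recruited macrophage-like cells stood first, followed by choroid plexus epithelium-like cells and then microglia, and the suffix ranges of the latter pair overlapped. This order depended on the processing, since totals without markers and Ttr put Cd63 at 1535 CPM in choroid plexus epithelium-like and 1258 CPM in recruited macrophage-like cells, and the gate with at least 4 marker genes put the latter level with microglia. For Cd37 granulocyte-like cells and microglia were level within their intervals, followed by NK cell-like cells. For Cd53 classical monocyte-like, dendritic cell-like and microglia-like cells did not differ beyond their pooled intervals, although both monocyte suffixes (1260 and 1399 CPM) lay above the highest microglial suffix, and in suffix 6 the intervals of monocyte-like (1265 to 1544) and microglia-like cells (1128 to 1165) were apart. For Cd151 every neighbouring pair in the order overlapped.

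Across 17 sums of cells by group and suffix (6 groups), Cd37 and Cd53 followed each other with a Pearson r of 0.86 on log2(CPM + 10), and Cd9 and Cd81 with 0.87. The first r includes 4 choroid plexus epithelium-like sums, where Cd37 and Cd53 were both nearly missing. In classical monocyte-like and dendritic cell-like cells Cd37 was 4.75-fold and 5.46-fold below microglia, whereas Cd53 was 1.05 and 1.02 times microglia. Cd63 went with Cd81 (0.84) and not with Cd53 (-0.44). The sums share libraries, and 6 of them are microglia-like and 4 choroid plexus epithelium-like, so the correlations are a description without a test. Among 5147 genes, the 3 most like Cd37 were Tra2b, Rhoh and Nrip1 (r 0.97 to 0.98), and those most like Cd53 were Cotl1, Sh3glb1 and Vav1 (0.98). Those most like Cd9 were Comtd1, Glb1 and Pld3 (0.88 to 0.90), those most like Cd81 were Sparc, Ltc4s and Ctsd (0.92 to 0.94), and those most like Cd63 were Ltc4s, Gas6 and Timp2 (0.88 to 0.92). For Cd82 they were Ifitm10, Gm11713 and Saraf (0.89 to 0.93), and for Cd151 Dhrs3, Abhd6 and Naglu (0.89 to 0.93).

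PU.1 is a transcription factor of myeloid cells and B cells, and the letters GAGGAAGT, its core motif, were looked for on both strands of the RefSeq promoters (GRCm38.p6, 250 bases before to 50 after the start). All 7 genes matched, with 11 promoters, of which 3 held the motif, 1 each for Cd37, Cd53 and Cd82. Of all 32851 promoters 3.20% held it, as did a promoter of 3.69% of 27025 genes. The stretches of 100 bases that hold it are shown for these 3 genes. Cd37 and Cd53 went together over the sums by group and suffix but parted in classical monocyte-like and dendritic cell-like cells. Of the gated groups, NK cell-like cells had the most Cd82. Each is written 5′ to 3′ on the strand of its gene, with the motif or its reverse complement in capitals.
Cd37 (chr7:45238810-45238909, minus strand, bases -70 to 30 from the start): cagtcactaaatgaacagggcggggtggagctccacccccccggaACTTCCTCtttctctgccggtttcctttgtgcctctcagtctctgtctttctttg
Cd53 (chr3:106790120-106790219, minus strand, bases -70 to 30 from the start): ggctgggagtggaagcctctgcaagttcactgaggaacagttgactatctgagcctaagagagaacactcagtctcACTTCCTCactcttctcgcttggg
Cd82 (chr2:93462002-93462101, minus strand, bases -250 to -151 from 1 of 4 starts): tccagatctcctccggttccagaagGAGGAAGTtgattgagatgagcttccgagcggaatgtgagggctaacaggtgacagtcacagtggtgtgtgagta
In Cd37 the motif began 25 bases before the start and in Cd53 at base 7 after it, both on the opposite strand, and in Cd82 it began 225 bases before the start on the gene's own strand. The promoters of Cd9, Cd81, Cd151 and Cd63 held no match, which says only that these letters are not in that window.

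The second question was how the tetraspanins vary among microglia-like cells. The study also described bone-marrow-derived macrophages among its cells, some of them with core microglial genes at low levels. Its clusters were not used here, so microglia-like cells can include cells that the study called such macrophages. The differences below are therefore not shown to lie within microglia alone. The 26461 microglia-like cells with at least 1000 UMIs were ranked by their share of UMIs on each of 6 lists of genes. The top 5% (1323 cells) were set against the low cells, which were all cells at or below the median share. In the Ccl2 and Ccl12 and the Apoe and Spp1 programs these were 13231 cells. In the others the median share was 0, and the low cells were all those without a UMI on the list. They numbered 20724 for the Lpl, 18739 for the MHC class II, 23008 for the interferon and 22462 for the cell cycle program. Cd63 was the member called most often, at least 1.5-fold higher in the top cells of 5 of the 6 programs. The top sets of these programs share cells, so the 5 calls are not independent. The Cd63 calls in the Ccl2 and Ccl12, MHC class II and interferon programs did not hold under every setting. Cd9 passed 1.5-fold in 2 programs and in opposite directions. The other 5 members stayed within 1.5-fold in every program. No tetraspanin is in a list.

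Lpl, Itgax, Cst7 and Igf1 are genes of the microglia known as lipid-associated or disease-associated. In cells high in the Lpl program (Lpl, Fam20c, Fabp5, Mmp12, Csf1, Itgax, Cst7, Igf1) Cd63 stood at 1907 CPM against 541 CPM in the low cells, a ratio of 3.53 (3.43 to 3.62). The ratio lay above 1 in 6 of 6 suffixes, between 2.59 and 3.96. Cd9 stood at 2682 against 1179 CPM, a ratio of 2.28 (2.22 to 2.33), between 2.08 and 2.66 over suffixes, and the range of the high cells over suffixes (2491 to 2948 CPM) did not overlap that of the low cells (937 to 1322 CPM). Cd37 and Cd53 were lower in 6 of 6 suffixes, with ratios of 0.79 and 0.81. Of 2880 genes, 5.87% were at least 1.5-fold higher and 4.13% lower, against 2 and 0 of the 7 members. The study listed Lpl, Fam20c, Cd9 and Cd63 together among the top genes of a microglial cluster of these same data. The rise of Cd9 and Cd63 here is thus not independent of that list. Without shared barcodes the ratios were 2.77 for Cd63 and 2.06 for Cd9. The top cells were shallower, with a median of 2022 UMIs against 2909, and had a median of 0.67% of UMIs on the microglia list against 1.13%.

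Ccl2, Ccl7 and Ccl12 are chemokines that draw monocytes. In cells high in them Cd9 stood at 798.4 CPM against 1445 CPM, a ratio of 0.55 (0.53 to 0.57), lower in 6 of 6 suffixes with ratios from 0.38 to 0.85. Cd63 stood at 1017 against 652 CPM, a ratio of 1.56 (1.51 to 1.61), but suffixes ranged from 0.99 to 2.11. Thinned to 1000 UMIs the Cd63 ratio was 1.25, without shared barcodes it was 2.08, and without suffix 3, 4 or 6 it no longer passed 1.5-fold. Of 2864 genes, 4.89% were higher and 3.18% lower, against 1 and 1 of the 7 members. Cd9 thus stood above the low cells in the Lpl program and below them in the chemokine program, and only 26 cells (1.97% of each set) were in the top 5% of both. Without shared barcodes the Cd9 ratio was 0.57.

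**Figure D3:**
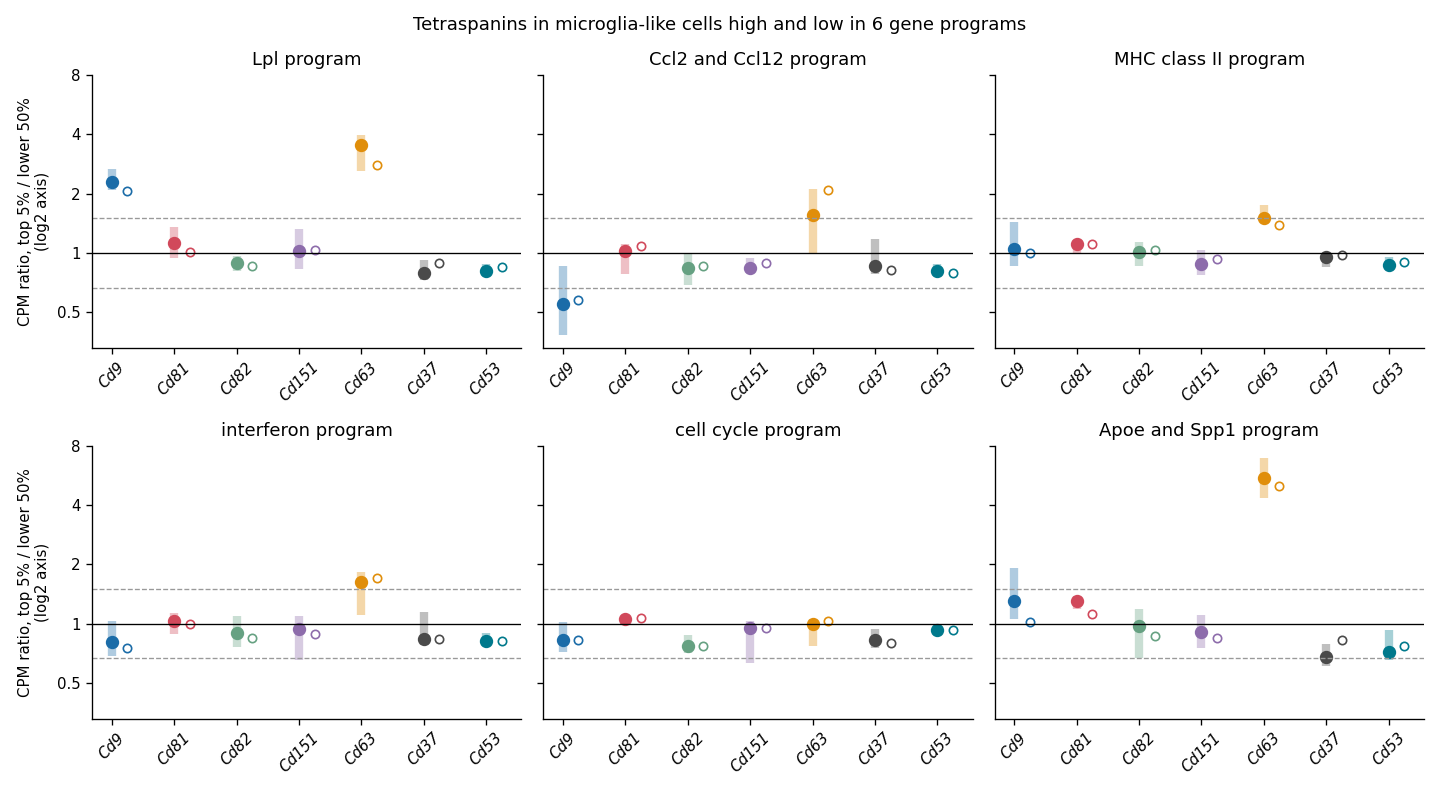
Ratio of CPM in the top 5% to that in the low cells among microglia-like cells (log2 axis) for the 7 tetraspanins in 6 programs: filled circles give all suffixes, bars the range over the 6 suffixes, open circles unshared barcodes, and dashed lines 1.5-fold. The low cells, labelled lower 50%, are all cells at or below the median share and differ in number between programs. Cd63 reaches 5.45 in the Apoe and Spp1 program and 3.53 in the Lpl program, and Cd9 lies at 2.28 in the Lpl and 0.55 in the Ccl2 and Ccl12 program.

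Apoe carries lipids and Spp1 codes for osteopontin, a secreted matrix protein. Cd63 had its largest ratio in this program, at 2025 CPM in the top cells and 371 CPM in the low cells, a ratio of 5.45 (5.29 to 5.62) that ran from 4.32 to 6.92 over the 6 suffixes. The low cells here were 13231, against 20724 in the Lpl program, where Cd63 stood at 541 CPM in the low and 1907 CPM in the top cells. The ratios of the 2 programs thus have unlike bases. The high cells lay between 1920 and 2091 CPM in every suffix and the low cells between 290 and 473 CPM, so the 2 ranges did not overlap. Cd9 and Cd81 had ratios of 1.30 and 1.30, and both were above 1 in 6 of 6 suffixes. Cd37 (0.68) and Cd53 (0.72) were below 1 in 6 of 6 suffixes without passing 1.5-fold. Of 2926 genes, 8.92% were higher and 13.5% lower, against 1 and 0 of the 7 members. Apoe, Spp1 and Cd63 also stood together in the study's top genes of a microglial and of a macrophage cluster of these data. The Cd63 ratio is thus not independent of those lists. The top cells held a median of 1688 UMIs against 2938 and a median of 0.60% of UMIs on the microglia list against 1.22%, whose part was not tested. Without shared barcodes the Cd63 ratio was 5.00 and thinned to 1000 UMIs it was 5.62, where Cd9 (1.51) and Cd37 (0.62) also passed 1.5-fold, while without shared barcodes the ratios were 1.02 for Cd9, 1.12 for Cd81 and 0.82 for Cd37.

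The gradient of Cd63 along Apoe and Spp1 ran through the whole range of cells. The 26461 cells were ordered by this share and divided into 10 equal sets, in which Cd63 went from 275 CPM in set 1 through 348, 476 and 662 CPM in sets 3, 5 and 7 to 956, 1434 and 1861 CPM in sets 8, 9 and 10. Each set was above the one before. From set 1 to set 10 Cd9 went from 1211 to 1582, Cd81 from 3492 to 4639, Cd53 from 1238 to 913 and Cd37 from 534 to 371 CPM, and Cd82 stayed between 273 and 293 CPM. Cells of sets 9 and 10 were shallower, with medians of 1951 and 1743 UMIs against 2724 to 3311 in the others. With unshared barcodes alone, where set 10 was the deepest at a median of 3803 UMIs, Cd63 went from 262 to 1536 CPM and Cd9 from 1199 to 1213 CPM. Ranked by Apoe alone the top 5% had a Cd63 ratio of 5.39 (5.22 to 5.55), and by Spp1 alone 3.00 (2.93 to 3.08). The 10 sets and the ranking by single genes were chosen with these values in view.

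**Figure D4:**
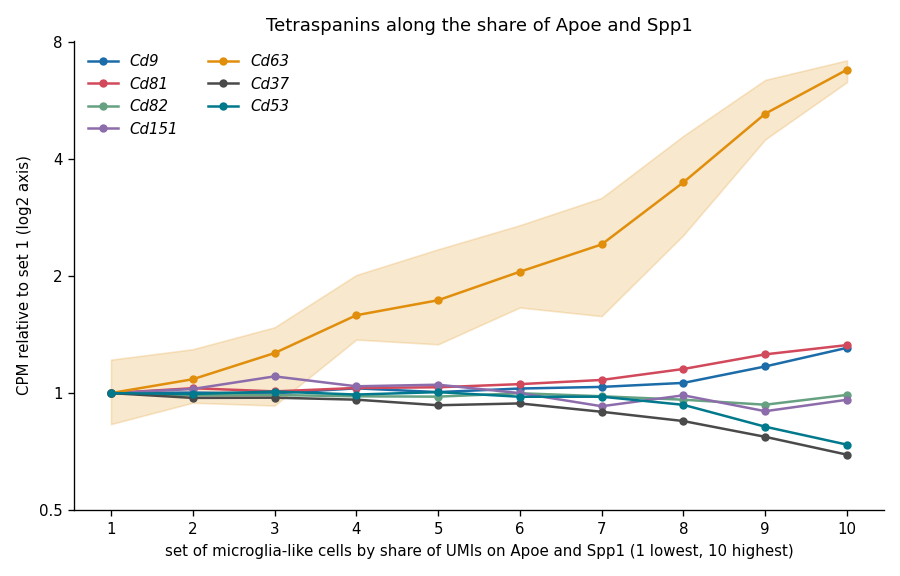
CPM of each tetraspanin relative to set 1 (log2 axis) over 10 equal sets of microglia-like cells ordered by their share of UMIs on Apoe and Spp1, with the range of Cd63 over the 6 suffixes shaded. Cd63 reaches 6.77 times its level in set 1, while Cd81 ends at 1.33 and Cd37 at 0.69.

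The top sets of the Lpl program and of the Apoe and Spp1 program shared 392 cells, 29.6% of each. In the 24207 cells outside both, Cd63 stood at 613 CPM and Cd9 at 1219 CPM. The top set of the Apoe and Spp1 program also shared 238 cells with that of the MHC class II program. It shared 160 cells with the interferon and 85 with the Ccl2 and Ccl12 top set. The part of these shared cells in the Cd63 ratios of the other programs was not tested.

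In the remaining 3 programs fewer differences passed the fold. In cells high in interferon genes (Ifit1, Irf7, Isg15 and others) Cd63 stood at 1065 against 653 CPM, a ratio of 1.63 (1.58 to 1.68), above 1 in 6 of 6 suffixes from 1.11 to 1.83 and 1.71 without shared barcodes, and Cd9 had a ratio of 0.81. Of 2859 genes, 4.97% were higher and 0.735% lower, against 1 and 0 members. In cells high in MHC class II genes, which present antigen, Cd63 stood at 991 against 660 CPM, a ratio of 1.502 (1.45 to 1.55) at the limit itself, and 1.38 without shared barcodes. Of 2772 genes, 2.2% were higher and 0.289% lower, against 1 and 0 members, and suffix 1 held 45.4% of the top cells. In cells high in cell cycle genes no member passed 1.5-fold, Cd63 had a ratio of 1.00 (0.96 to 1.04) and the lowest was Cd82 at 0.77 (0.72 to 0.82), below 1 in 6 of 6 suffixes. Of 3070 genes, 9.77% were higher and 0.521% lower in those cells.

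The cells that met no gate were rich in Cd63. They had 1834 CPM (1804 to 1865), 2.56 times microglia-like cells, with 1631 to 2047 CPM over the 6 suffixes, all above the highest microglial suffix. Cd9 stood at 1750 CPM, 1.35 times, and Cd37 and Cd53 at 0.69 and 0.75 times. Of 2933 genes, 3.58% were at least 2-fold higher and 1.19% lower, against 1 and 0 members. In the 1334 of these cells without a shared barcode Cd63 stood at 1662 CPM, 2.69 times the unshared microglia-like cells, and Cd9 at 1337 CPM, 1.09 times. Their C1q level was 1.22 times and their microglia list 3186 CPM against 10915 CPM in microglia-like cells, and they were not given a cell type. Their recruited macrophage list stood at 665 CPM against 144 CPM and their granulocyte list at 114 against 12.3 CPM, and the part of these cells in the Cd63 level was not tested.

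The matrix held 24 other tetraspanin genes (Tspan genes, Upk1a, Upk1b, Prph2 and Rom1), of which 6 reached 50 CPM in microglia or a gated group. All 6 reached it in microglia, so genes rare in microglia are absent here and calls of lower were favored by the selection. Of the 6, 5 were lower in NK cell-like and granulocyte-like cells and 4 in classical monocyte-like, dendritic cell-like and recruited macrophage-like cells. Of all genes tested, which passed in either group, 20.9%, 36%, 20%, 21.5% and 15.8% were lower in these groups. Tspan7, Tspan14 and Tspan3 were lower in each of these 5 groups. Tspan3 stood at 172 CPM in microglia and 29.2 CPM in classical monocyte-like cells, and was 2.13 times microglia in choroid plexus epithelium-like cells. Tspan7 stood at 99.1 CPM in microglia and had 1 UMI in classical monocyte-like cells, a ratio of 0.01 (interval up to 0.08). Tspan4 was lower in NK cell-like, granulocyte-like, classical monocyte-like and dendritic cell-like cells, and Tspan31 in NK cell-like and granulocyte-like cells. In granulocyte-like cells the 5 lower genes had 0 to 3 UMIs each, and the ratio intervals of Tspan7 (up to 1.01) and Tspan14 (up to 1.10) reached the microglial level. Tspan13 was 2.33 times higher in granulocyte-like cells, at 486 against 209 CPM, and 2.99-fold lower in recruited macrophage-like cells. In choroid plexus epithelium-like cells the 5 genes other than Tspan3 were lower. Within microglia none of the 6 passed 1.5-fold except Tspan13, 1.504-fold lower in cells high in Ccl2 and Ccl12.

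Of 15 known partners, 9 to 12 reached 50 CPM in each comparison of a gated group with microglia. Cd44 and Itga4, at 1.71 and 2.14 CPM in microglia, and Pdcd6ip, at 49.8 CPM, reached it only through the other group. For Cd44 and Itga4 a call of higher was thus fixed by the minimum, and the counts of higher partners below include them. The adhesion receptor Cd44 stood at 1.71 CPM in microglia and at 255 CPM in classical monocyte-like, 234 in granulocyte-like, 139 in dendritic cell-like, 84.7 in recruited macrophage-like and 54.8 CPM in NK cell-like cells. Cd47, the ligand of the phagocyte receptor SIRPα, stood at 147 CPM in microglia and at 716 CPM in NK cell-like, 684 in dendritic cell-like, 576 in granulocyte-like and 498 CPM in classical monocyte-like cells. The integrin subunit Itga4 stood at 2.14 CPM in microglia and 164 CPM in NK cell-like, 80.3 in classical monocyte-like and 61.6 CPM in dendritic cell-like cells. Igsf8, the partner of Cd9 and Cd81, stood at 203 CPM in microglia and was past 2-fold lower in NK cell-like (36.5 CPM), granulocyte-like (3 UMIs), classical monocyte-like (90.5 CPM) and choroid plexus epithelium-like cells (12.8 CPM), but not in dendritic cell-like or recruited macrophage-like cells. Sdcbp, the syntenin that binds Cd63, was 2.45 times microglia in classical monocyte-like and 2.20 times in granulocyte-like cells. In all, 5 partners were higher and 4 lower of 12 in NK cell-like cells, 3 and 4 of 11 in granulocyte-like, 4 and 2 of 12 in classical monocyte-like, 3 and 3 of 12 in dendritic cell-like, 2 and 0 of 10 in recruited macrophage-like and 0 and 8 of 9 in choroid plexus epithelium-like cells. Among all genes 26.3% to 30.6% were higher in the first 4 of these groups, against 3 of 12 to 5 of 12 partners, and 20% to 36% were lower. In recruited macrophage-like cells 20.1% of all genes were higher and 15.8% lower, and in choroid plexus epithelium-like cells 27% and 43.7%. The others called were Itgb1, Pdcd6ip, Itgam, Itga6, Adam10, Adam17 and Itgb2, with Adam17, the sheddase, 2.16 times microglia in recruited macrophage-like cells. Within microglia Itga6 (1.96) and Itgam (1.78) were higher in cells high in Ccl2 and Ccl12, Cd47 (1.56) in those high in interferon genes, and Itgb2 (1.51) in those high in Apoe and Spp1. These were 2 of 9, 1 of 10 and 1 of 10 partners, where 4.89%, 4.97% and 8.92% of all genes were higher.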

How the data were processed

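The authors made 10x Chromium 3′ (v2) libraries from 3 IL33 and 3 pcDNA mice and aligned reads to mm10 with STAR in Cell Ranger. Its version is 3.1 in the submitters' processing notes, which also name Seurat 3.1.5. The libraries were combined in Cell Ranger's aggregate run. What they deposited is 1 matrix of raw UMI counts per gene and barcode for all 6 libraries, 105560763 UMIs in all. The study's limits on genes and mitochondrial counts had not been applied to it. The release of the gene annotation is not given in the sources used here. The libraries were sequenced in 3 batches that no label ties to suffixes, so no within-batch value could be had. No per-sample columns were left out (0).

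The members, marker lists, programs and partner lists were chosen with earlier results of these data known. Groups needed at least 3 marker genes of 1 list and under 0.2% of UMIs on the microglia list (P2ry12, Tmem119, Gpr34, Olfml3, Sall1, Siglech, P2ry13). Microglia-like cells needed at least 0.4% and 3 genes. Cells that met several gates, or held 3 genes of another list above that limit, were set aside (342 mixed cells). Cells over 2500 genes were removed as doublets, as in the study, and no doublet caller was run. Genes were called at 50 CPM in 1 group and 2-fold (1.5-fold in programs). Ratio intervals are exact conditional binomial intervals. Suffix values needed 20 cells. Text names all 7 members, other tetraspanins and partners that were called, and the 3 genes most like each member. A count of 0 allows up to 3 UMIs. The call rule was tested on simulated data. Genes were placed by GENCODE M21. Python 3.11.15, numpy 2.4.6, scipy 1.17.1, pandas 2.3.3 and matplotlib 3.10.9 were used. Gates, filters, thresholds, thinning, suffixes left out, and 3 alternatives added after the data were seen (unshared barcodes, few C1q transcripts, totals without markers) were varied.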

Additional observations from a re-analysis of the deposited data

Results flagged for a closer look

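In the choroid plexus epithelium-like cells, Cd37 stood at 9.83 CPM in suffix 6 and had 0 UMIs in the 3 other suffixes with at least 20 cells, a gap that spans the whole range of the 4 values. It rests on 1 UMI, and the exact Poisson intervals of the zeros reach 22.7, 97.2 and 66.3 CPM, so no difference between suffixes was detectable. With 0 UMIs in 3 suffixes any count in the other would give such a gap. This was 1 of 14 sets of 4 to 6 suffixes that were looked at. About 1 in 20 sets of continuous values would be expected to stand out, a rate that need not hold for counts this low.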

How the results depend on the processing

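Counts of members past the fold were recomputed under 26 settings, 217 values in all, of which 191 stayed within 1.5 times the count reported. No called member changed direction. In classical monocyte-like and dendritic cell-like cells the count was 6 under every setting run, and for the Lpl program it was 2. With no limit on the microglia list the count was 1 in NK cell-like, 0 in granulocyte-like and 1 in recruited macrophage-like cells. At 1.5-fold it was 7 in recruited macrophage-like cells. For the Ccl2 and Ccl12 program it was 1 when thinned to 1000 UMIs, with the top 10% or with no UMI minimum, and 0 at 2-fold. For the MHC class II program it was 0 with no upper limit on genes, at 2-fold, with the top 10%, with the top 5% within each suffix, with no UMI minimum and without shared barcodes. For the interferon program it was 0 at 2-fold and with the top 10%. For the cell cycle program it was 2 with the top 2%. For the Apoe and Spp1 program it was 3 when thinned to 1000 UMIs and 2 with the top 2%. The cause was not tested. Leaving out 1 suffix gave 1 to 2 members in the Ccl2 and Ccl12 program, 0 to 1 in the MHC class II program (0 without suffix 2, 3 or 6) and 1 to 2 in the Apoe and Spp1 program (2 without suffix 4). Granulocyte-like cells gave no value with at least 1000 UMIs, when thinned or as a median within suffixes, because under 20 cells were left, and border-associated macrophage-like cells gave none at all. Small groups limit what can be seen: in granulocyte-like cells 3 UMIs are 54.0 CPM. No paired analysis was possible because the GEO labels give suffixes no replicate number and no result comes from a test.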
